A study of Mus musculus with 8 samples.

Results

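The cells described here are C1q-positive tumor macrophages that carried transcripts of dividing cells, taken from 1 single-cell RNA-seq library of a pancreatic tumor and 1 of a liver tumor. A barcode was called a cell at 1500 or more UMIs (unique molecular identifiers, each counting 1 captured transcript), 200 or more genes and at most 10% mitochondrial UMIs, and levels within a cell are in UMIs per 10000 UMIs of that cell. Members were chosen by their measured UMIs. A called cell was a member when the complement genes C1qa, C1qb and C1qc summed to 10 or more, the epithelial keratin genes Krt8, Krt18 and Krt19 summed to under 20, and at least 3 of the 5 cycle genes Mki67, Top2a, Birc5, Cdk1 and Ube2c had a UMI. The rule found 67 cells in the primary library and 210 in the liver library, 277 of 9895 called cells (2277 primary, 7618 liver) and of 4102 C1q-positive, keratin-low cells (1472 primary, 2630 liver). They were set against the 950 primary and 1342 liver cells of the same C1q and keratin range with none of the 5 cycle genes, called non-cycling below.

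Both tumors came from FC1242 KPC mouse pancreatic cancer cells, and each C57BL/6 mouse received 100000 of them, in the pancreas for a primary tumor or by a route that gave growth in the liver. Tumors were taken at week 3, CD45+ leukocytes were sorted by flow cytometry, and droplet libraries were made on the 10x platform. The labels give no treatment beyond the injection and do not say how many mice went into a library. With 1 library per site and groups cut from the measured cells there was no replicate and no test, and intervals in brackets are exact 95% intervals that cover counting error only.

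Macrophages take up dead cells, present antigen and remodel tissue, and in tumors they arise from recruited blood monocytes and from macrophages resident in the organ. Part of the population can divide in place, driven chiefly by colony-stimulating factors. A dividing cell copies its DNA in S phase, with helicase, polymerase and nucleotide synthesis genes at work, and then builds a spindle and separates its chromosomes in G2 and M phase, when Mki67 (a chromosome surface protein), Top2a (the topoisomerase that untangles DNA), Birc5 (survivin, of the chromosomal passenger complex), Cdk1 (the mitotic kinase) and Ube2c (a ubiquitin enzyme of the anaphase-promoting complex) are at their highest.

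The macrophage label was set against 12 macrophage markers that were not part of the rule. The median member had a UMI of 11 of 12 macrophage markers in both libraries, against 10 in non-cycling cells and 3 in neutrophil-type barcodes (S100a8 and S100a9 summing to 100 or more with C1q under 10). At least 6 markers were found in 64 of 67 primary and 208 of 210 liver members. Csf1r, the receptor for the macrophage growth factor CSF1, had a UMI in 94.0% of primary and 97.1% of liver members, against 16 of 123 and 23 of 79 (29.1%) of the neutrophil-type barcodes. Adgre1, which encodes F4/80, was found in 85.1% and 85.7% of members, against 8.13% and 8.86%. Lyz2, another of the markers, was found in 98.5% and 100% of members and in 39.0% and 92.4% of neutrophil-type barcodes, so it hardly separated them in liver. These detection counts are not at equal depth. Members had a median of 24166 primary and 19699 liver UMIs, and neutrophil-type barcodes 2734 and 2348. The C1q sum chose the members, so its level is a description and no support for the label. It had a median of 137 primary and 121 liver UMIs per 10000. Barcodes of 10 to 100 UMIs, which hold free RNA and no cell, had a C1q level of 46.2 and 48.5, and 62 of 67 and 201 of 210 members lay at or above that level. The 12 markers summed to 73.1 and 73.8 UMIs per 10000 in free RNA, against 134 in primary and 197 in liver members.

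Transcripts of other cell types were present at low levels in the members, and their part in the results was not tested. T cell markers summed to 1.03 UMIs per 10000 in primary members against 0.417 in non-cycling cells, and to 0.390 against 0.124 in liver, with 3 or more such UMIs in 3 primary and 4 liver members. Epithelial markers summed to 0.417 against 0.963 in primary and 5.49 against 7.67 in liver, where free RNA held 36.2. Neutrophil markers summed to 1.92 against 5.06 in primary and 1.29 against 5.14 in liver. Dendritic cell markers summed to 0.939 against 0.615 in primary and 0.491 against 0.614 in liver. Xcr1, which marks a class of dendritic cells, had 26 UMIs in 4 primary members and stood at 16.2 CPM (UMIs per 1000000 UMIs, summed over the cells of a group) against 0.396 CPM. That is under the 20 CPM asked for in the gene comparisons below. In liver Xcr1 had a UMI in 1 of 210 members, at a log2 ratio of -1.94 to non-cycling cells. A computed doublet score, which measures likeness to simulated mixtures of cells, was among the top 6% of its library in 20 of 67 primary members (29.9%) and 22 of 210 liver members (10.5%), against 7.79% and 5.89% of non-cycling cells. No barcode was shared between the members of the libraries, and 3 were shared among all C1q-positive cells.

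The members were deeper cells, which bears on a rule that needs 3 genes detected. Their median UMI count was 24166 primary and 19699 liver, against 12978.5 and 10425.5 in non-cycling cells. They made up 4.55% (3.54 to 5.74) of C1q-positive cells in primary and 7.98% (6.98 to 9.09) in liver. Every cell was then thinned to 3000 UMIs and the rule applied again. The shares became 1.76% (1.14 to 2.58), 25 of 1423 cells, in primary and 1.85% (1.36 to 2.47), 46 of 2480 cells, in liver. Left out were 56 primary and 143 liver cells under 3000 UMIs, 3 and 2 of them members. The gap between sites was thus not seen after thinning with the cut of 3 genes. With at least 2 of the 5 genes it remained after thinning, at 2.88% (2.08 to 3.89) in primary and 5.12% (4.29 to 6.06) in liver. With at least 1 gene the thinned liver share was also the higher. Among cells of at least 10000 UMIs, not thinned, the members' shares were 5.15% in primary and 11.7% in liver. How far depth made the gap was not tested. The neutrophil-type barcodes, which should not divide, reached 3 of the 5 genes in 0 of 123 primary cases, which allows a share of up to 2.44%, and in 3 of 79 liver cases, 3.80% (0.790 to 10.7), at median depths of 2734 and 2348 UMIs. Those 3 liver barcodes carried 4 or 5 of the genes. At 3000 UMIs they did so in 0 of 42, which allows up to 7.14%, and 2 of 18 cases, 11.1% (1.38 to 34.7). The liver share lay within the wide interval of that class. With 79 barcodes at a lower depth, and 4 or 5 genes in the 3 that passed, the class cannot set a background from detection alone. The liver share was therefore not read as above background.

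**Figure D1:**
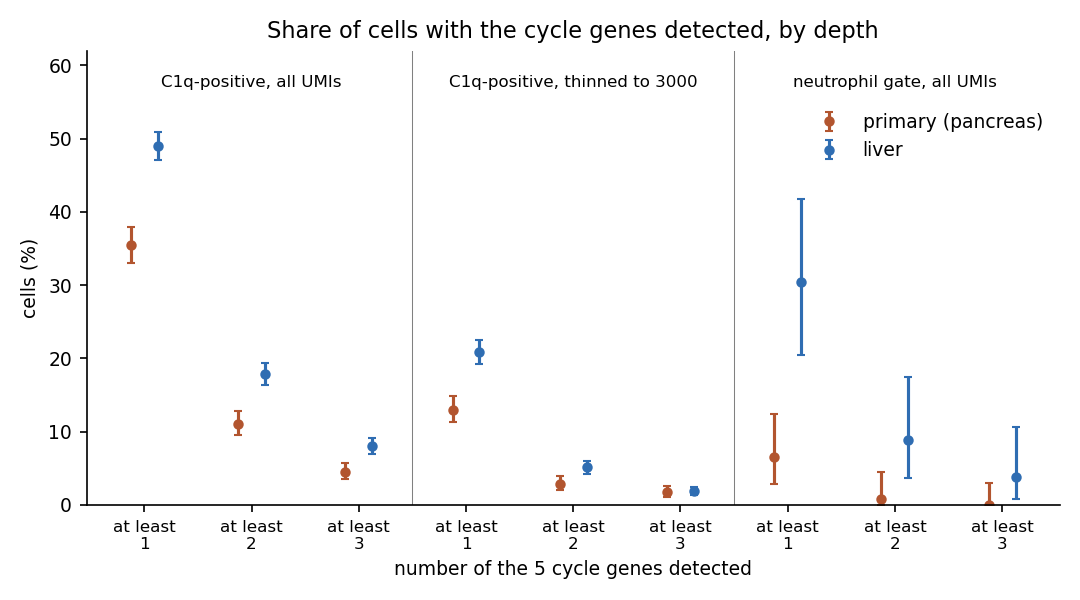
Share of cells (y axis, percent, with exact 95% intervals) with at least 1, 2 or 3 of the 5 cycle genes detected (x axis) in each library. The groups are C1q-positive cells at full depth, C1q-positive cells chosen again after thinning to 3000 UMIs, and neutrophil-type barcodes at full depth. The shares with at least 3 genes are 4.55% and 7.98% at full depth and 1.76% and 1.85% after thinning.

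The level of the 5 genes, which chose the members and is given here as a description, set most members above free RNA. Mki67 stood at 467 CPM in primary and 255 CPM in liver members and had a UMI in 92.5% and 88.1% of them. Top2a stood at 389 and 189 CPM, Birc5 at 238 and 239 CPM, Cdk1 at 119 and 99.3 CPM and Ube2c at 214 and 166 CPM. Summed over the 5 genes, the median member had 9.09 primary and 5.63 liver UMIs per 10000, against 2.70 and 3.21 in free RNA. The members just inside the threshold, with exactly 3 genes (36 primary, 96 liver), had medians of 3.17 and 2.98, near the free RNA level. Cells just outside, with exactly 2 genes (96 primary, 259 liver), had 1.46 and 1.78, and members with 4 or 5 genes (31 primary, 114 liver) had 21.5 and 9.88.

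The remaining S-phase and G2/M genes, from lists of 60 and 69 genes that leave out the 5 rule genes, describe the members further. The rule genes are highest in G2 and M, so the rule favours members with high G2/M genes. The split by phase is therefore a description and no measure of how the cycle was divided. Members had a median of 16.3 primary and 15.9 liver UMIs per 10000 of S-phase genes, against 5.88 and 6.90 in non-cycling cells. Of G2/M genes they had 34.0 and 23.5, against 5.33 and 6.12. The G2/M sum exceeded the S sum in 47 of 67 primary and 113 of 210 liver members, and the S sum was the higher in 19 and 90. In non-cycling cells the G2/M sum was the higher in 372 of 950 and 485 of 1342, and the S sum in 473 and 707. Counted at 20 or more UMIs per 10000, G2/M genes were high in 40 primary and 112 liver members, S genes in 30 and 91, both in 21 and 60, and neither in 18 and 67. Members with exactly 3 rule genes had G2/M medians of 13.5 and 10.5, and those with 4 or 5 had 81.8 and 43.6, so the threshold mixed cells with high and with near-background levels. Cells with exactly 2 rule genes had 5.94 and 6.92, close to non-cycling cells.

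**Figure D2:**
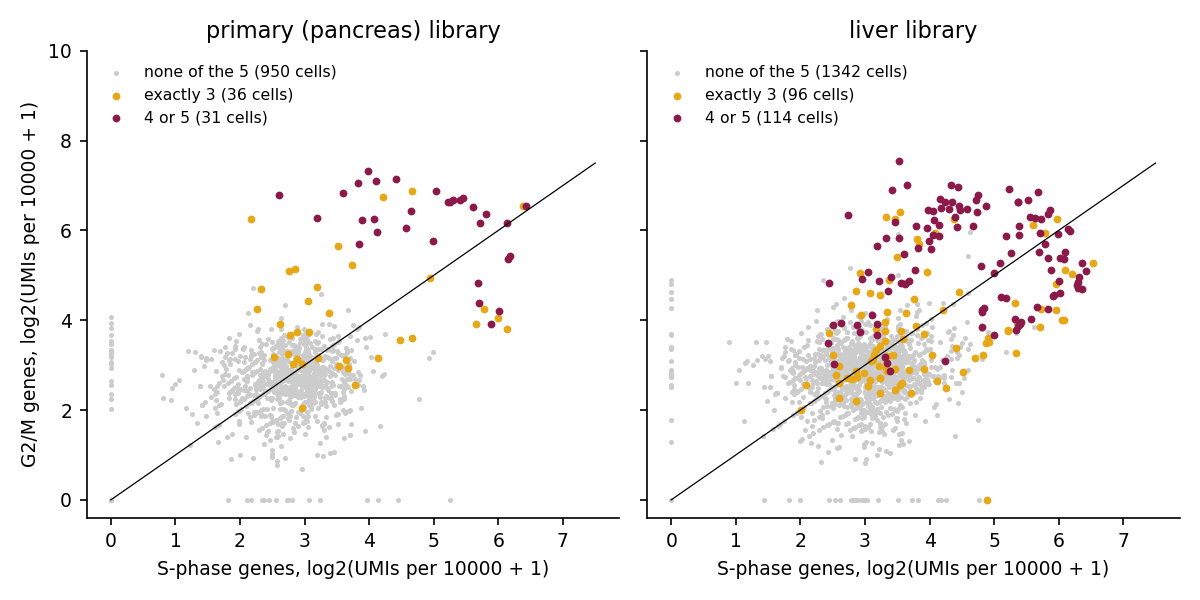
Each point is 1 C1q-positive cell, by its S-phase genes (x axis) and G2/M genes (y axis), both as log2(UMIs per 10000 + 1) without the 5 rule genes, with 1 panel per library and the line of equal sums. Members spread along both axes, with 47 of 67 primary and 113 of 210 liver members above the line, and part of them lie within the cloud of non-cycling cells.

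Promoters of the cycle genes are shown because the members' G2/M and S-phase genes are known to be driven through different promoter elements. The CHR element (TTTGAA) and the CCAAT box are known from genes that peak late in the cycle, and TTCCCGC is one form of the site of E2F factors, which drive S-phase genes. RefSeq windows of 300 bases around gene starts (build GRCm38.p6) were searched for these letters on both strands. TTTGAA was found in 66.2% of 65 windows of G2/M genes, 17.2% of 58 windows of S-phase genes, 4 of the 5 rule genes and 17.9% of 32851 windows of all genes. CCAAT was found in 67.7% of G2/M, 62.1% of S-phase and 37.4% of all windows, and in 4 of the 5 rule genes. TTCCCGC was found in 6.15% of G2/M, 32.8% of S-phase and 4.60% of all windows, and in 0 of the 5 rule genes. A match is a description of the sequence, not a bound site. The 200 bases before the start follow, 5′ to 3′ on the gene's strand, with matches to a motif or its reverse complement in capitals. They are the rule genes and G2/M genes with a TTTGAA match, and the S-phase genes with a TTCCCGC match, within these 200 bases, that had the highest mean CPM over the members of both libraries among those with a single window.
Mki67, chr7:135716380-135716579, minus strand: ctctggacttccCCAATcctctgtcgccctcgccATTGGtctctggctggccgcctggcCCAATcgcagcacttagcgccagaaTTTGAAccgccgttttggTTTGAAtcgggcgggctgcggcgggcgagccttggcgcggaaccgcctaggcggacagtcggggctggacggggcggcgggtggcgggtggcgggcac
Top2a, chr11:99024190-99024389, minus strand: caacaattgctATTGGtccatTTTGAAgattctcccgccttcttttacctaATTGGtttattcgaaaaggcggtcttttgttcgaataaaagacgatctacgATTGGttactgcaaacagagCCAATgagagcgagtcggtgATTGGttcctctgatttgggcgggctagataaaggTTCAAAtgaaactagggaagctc
Cks1b, chr3:89418292-89418491, minus strand: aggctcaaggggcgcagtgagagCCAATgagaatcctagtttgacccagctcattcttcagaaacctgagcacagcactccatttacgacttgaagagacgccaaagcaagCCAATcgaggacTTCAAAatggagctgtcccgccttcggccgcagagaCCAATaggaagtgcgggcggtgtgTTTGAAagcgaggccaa
Smc2, chr4:52439021-52439220, plus strand: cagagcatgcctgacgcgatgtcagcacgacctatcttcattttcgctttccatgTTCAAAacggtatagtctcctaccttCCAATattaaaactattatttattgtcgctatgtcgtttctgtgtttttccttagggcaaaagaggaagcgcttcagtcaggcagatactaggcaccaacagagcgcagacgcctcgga
Rrm1, chr7:102441495-102441694, plus strand: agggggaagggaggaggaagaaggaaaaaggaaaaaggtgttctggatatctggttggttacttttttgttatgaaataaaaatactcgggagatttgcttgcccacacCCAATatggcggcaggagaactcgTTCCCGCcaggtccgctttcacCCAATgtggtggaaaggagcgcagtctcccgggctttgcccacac
Rpa2, chr4:132768160-132768359, plus strand: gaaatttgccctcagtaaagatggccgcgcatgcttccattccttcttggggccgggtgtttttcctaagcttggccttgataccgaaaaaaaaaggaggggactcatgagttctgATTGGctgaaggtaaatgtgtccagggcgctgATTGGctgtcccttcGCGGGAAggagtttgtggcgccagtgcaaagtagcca

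In members these printed genes stood far above non-cycling cells, apart from the rule genes, whose difference the rule made. Cks1b, a subunit that docks substrates to cyclin-dependent kinases, had 158 CPM against 9.59 in primary (16.5-fold) and 151 against 32.5 in liver (4.65-fold). Smc2, the core of condensin, which compacts chromosomes, had 159 against 9.43 CPM (16.8-fold) and 134 against 17.5 CPM (7.66-fold). Rrm1, the large subunit of ribonucleotide reductase, which makes DNA precursors, had 127 against 10.8 CPM (11.8-fold) and 102 against 14.9 CPM (6.82-fold). Rpa2, which coats single-stranded DNA, had 45.4 against 9.59 CPM (4.74-fold) and 37.3 against 9.10 CPM (4.10-fold).

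Over all genes, the cell cycle genes had the largest ratios of members to non-cycling cells, which the rule favours, so nothing is read from their number. Genes with at least 20 CPM and 20 UMIs in 1 of the groups were compared. A gene could enter through 1 group alone, which favours a ratio towards that group. In primary, 428 of 6342 genes (6.75%) were at least 2-fold higher and 213 (3.36%) at least 2-fold lower in members. In liver, 221 of 5919 (3.73%) were higher and 75 (1.27%) lower. In both libraries 191 of 5550 genes (3.44%) were higher and 33 (0.595%) lower. The median log2 ratio over all compared genes was 0.07 in primary and 0.05 in liver. Fcna, a ficolin of macrophages named because it was the 1 gene past 2-fold in opposite directions, had 5.60 against 21.5 CPM in primary, with 55.6% of its 9 UMIs from 1 cell, and 78.1 against 27.4 CPM in liver.

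Of S-phase genes, 45 of 47 in primary (median log2 ratio 2.35) and 36 of 43 in liver (2.04) were at least 2-fold higher in members, 35 of 42 in both. Replication licensing and helicase genes were higher for 10 of 10 and 9 of 10 members of the list, with Mcm5, a helicase subunit, at 79.0 against 3.88 CPM in primary and 73.5 against 8.06 in liver. Of this list 2 genes reached the level for comparison in non-cycling cells of either library, and the others entered through members alone. The DNA synthesis machinery was higher for 14 of 16 and 10 of 14 genes, with the lower medians of 1.75 and 1.67. Nucleotide synthesis genes were higher for 8 of 8 and 7 of 8, with medians of 3.35 and 2.74. Tk1, thymidine kinase, stood at 79.6 against 1.58 CPM (50.3-fold) and 82.1 against 3.96 CPM (20.7-fold). Pclaf, a partner of the replication clamp that was on no list, stood at 259 against 2.14 CPM (121-fold) and 210 against 5.21 CPM (40.3-fold).

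Of G2/M genes, 65 of 67 in primary (median log2 ratio 5.21) and 53 of 57 in liver (3.72) were at least 2-fold higher, 53 of 57 in both. Spindle, kinetochore and cytokinesis genes were higher for 36 of 36 and 32 of 32, with medians of 5.63 and 4.04. Of this list 3 genes reached the level for comparison in non-cycling cells of either library. The others entered through members alone, so that they were higher in members was fixed in advance, though not by how much. Cenpf, a kinetochore protein, stood at 212 against 2.14 CPM (98.9-fold) in primary and 111 against 6.25 CPM (17.7-fold) in liver. Mitotic cyclins, kinases and checkpoint genes were higher for 22 of 23 and 16 of 18, and 4 of them reached that level in non-cycling cells. Stmn1, which takes microtubules apart, was at 562 CPM in the members of both libraries, against 13.1 in primary (43.0-fold) and 38.6 in liver (14.6-fold) non-cycling cells. The median ratios were smaller in liver. There the median member held fewer G2/M transcripts than in primary (23.5 against 34.0 UMIs per 10000), and the median non-cycling cell held more (6.12 against 5.33). The part of each was not tested.

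Histones and other chromatin proteins of dividing cells were higher for 16 of 18 genes in primary and 17 of 17 in liver. Hist1h2ap, a replication-dependent histone, was at 755 against 26.8 CPM in primary (28.2-fold) and 158 against 6.67 CPM in liver (23.7-fold). Its level was thus 4.77-fold lower in liver than in primary members, while the ratio to non-cycling cells was of the same order. Hmgb2, a DNA-bending protein, was at 1092 against 197 CPM and 593 against 127 CPM.

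Outside the lists, 82 genes were higher in both libraries, and those with the largest smaller ratio belonged to replication and mitosis as well. Dtl, which targets the licensing factor Cdt1 for destruction, stood at 33.6 against 1.43 CPM and 20.7 against 1.04 CPM. Knl1, a kinetochore scaffold, stood at 72.8 against 2.61 CPM (27.8-fold) and 45.0 against 1.46 CPM (30.9-fold). Neil3, Esco2, Cit, Shcbp1, Cenph, Cdca2 and Pimreg completed the 10 together with Pclaf.

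**Figure D3:**
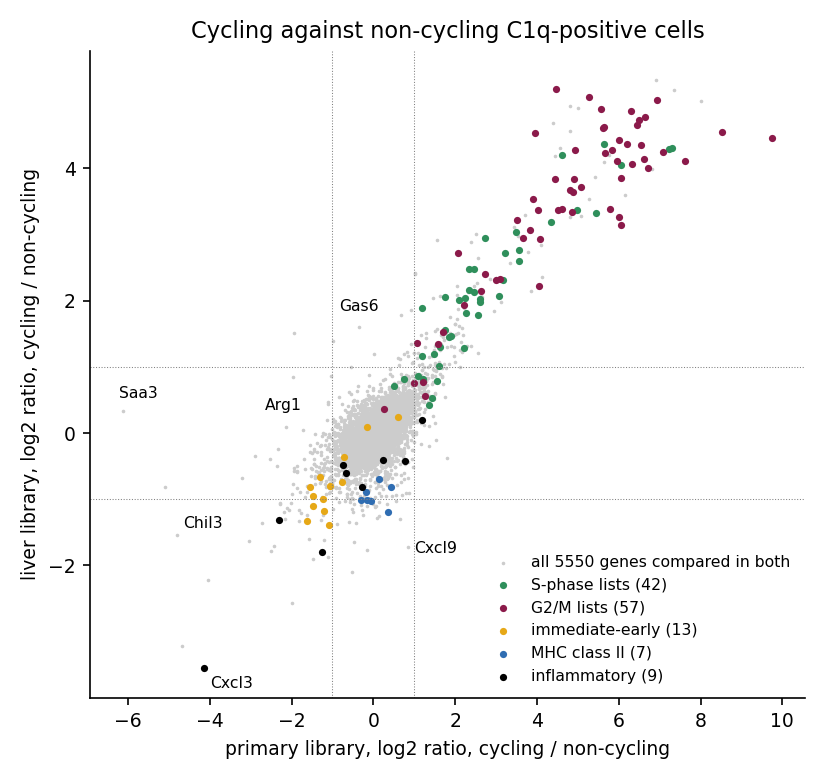
Log2 ratio of members to non-cycling cells in the primary library (x axis) against the liver library (y axis) for the 5550 genes compared in both (grey points), with cycle and macrophage state genes in color. S-phase and G2/M genes reach the upper right, with medians of 2.35 and 5.21 in primary and 2.04 and 3.72 in liver. The immediate-early list has medians of -1.22 in primary and -0.82 in liver, with Hsp90aa1 above 0 in both.

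Genes that open the cycle differed less and without a common direction (medians 0.56 in primary and 0.20 in liver). Of G1 cyclins and their kinases, 2 of 8 in primary (Cdk4 and Rbl1) and 1 of 9 in liver (Rbl1) were at least 2-fold higher, and 1 in liver (Ccnd2) was lower. Cdk4, the kinase of cyclin D, had 97.0 against 47.5 CPM in primary (2.04-fold) and 173 against 96.8 CPM in liver. Ccnd1, the cyclin D of growth factor signals, had 101 against 53.3 CPM and 109 against 79.6 CPM. Ccnd2 had 88.3 against 60.6 CPM in primary and 38.5 against 78.2 CPM in liver, so the direction differed. Rbl1, a pocket protein that E2F factors induce, was chosen after its values were seen, with 49.1 against 10.7 CPM and 21.0 against 7.51 CPM.

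Some cell cycle inhibitors were lower in members. In primary 6 of 14 were at least 2-fold lower and 1 higher (median -0.75), and in liver 1 of 12 was lower and 1 higher (median -0.35). Cdkn1a, which encodes the kinase inhibitor p21, had 157 (139 to 178) against 498 CPM in primary (3.16-fold lower) and 68.4 against 133 CPM in liver (1.95-fold lower). Btg2, an antiproliferative gene of the immediate-early kind and the 1 lower in liver, had 217 against 500 CPM and 59.7 against 183 CPM. Cdkn2c, which encodes the Cdk4 and Cdk6 inhibitor p18, was the higher one in both libraries, with 46.7 against 8.95 CPM and 34.4 against 4.66 CPM. Btg2 and Cdkn2c were named after their values were seen. Cdkn1b, which encodes p27, had 89.0 against 132 CPM and 27.7 against 34.5 CPM, under 2-fold in both.

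No compared gene of the colony-stimulating factor receptors and ligands passed 2-fold. Of 12 listed genes, 9 reached the level for comparison in each library, and none of the 9 passed 2-fold in primary (median log2 -0.36) or in liver (-0.42). The ligand gene Csf1 did not reach that level in primary, so the count says nothing of it there. Csf1r had 544 against 739 CPM and 370 against 476 CPM. Csf2rb, the shared chain of the GM-CSF, IL-3 and IL-5 receptors, had 197 against 265 CPM and 123 against 183 CPM. The 12 macrophage markers had medians of -0.13 and -0.33, and none passed 2-fold in either library.

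Most immediate-early genes compared in primary, and fewer in liver, were lower in members. They answer growth signals and also tissue handling. In primary 10 of 14 were at least 2-fold lower (median -1.22), in liver 4 of 13 (-0.82), and none was 2-fold higher. The heat shock gene Hsp90aa1, on the same list, had 333 against 220 CPM and 433 against 366 CPM. Fos had 202 against 559 CPM in primary (2.77-fold lower) and 176 against 376 CPM in liver (2.14-fold lower), and Egr1, Dusp1 and Junb were the others past 2-fold in both. Summed over the list, members had 22.0 against 46.1 UMIs per 10000 in primary and 18.8 against 30.8 in liver. These genes also respond to the dissociation of tissue, whose part in the result was not tested.

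Several inflammatory and hypoxia genes were also lower in members. Of inflammatory cytokines and chemokines, 6 of 12 in primary (median -0.92) and 3 of 9 in liver (-0.60) were lower, and 1 in primary (the chemokine gene Ccl12, named after its value was seen, 220 against 97.0 CPM) was higher. Il1b, the fever cytokine interleukin 1 beta, had 144 against 343 CPM (2.38-fold lower) and 50.8 against 176 CPM (3.47-fold lower). Cxcl2, which draws neutrophils, had 46.0 against 229 CPM (4.98-fold lower) and 51.6 against 128 CPM (2.48-fold lower). Of glycolysis and hypoxia genes, 7 of 20 in primary (-0.52) and 3 of 20 in liver (-0.32) were lower. Those 3 were Hilpda (4.46-fold in primary, 2.47-fold in liver), Ndrg1 (4.15-fold, 2.24-fold) and Egln3 (4.85-fold, 2.11-fold), all known targets of hypoxia-inducible factors. Vegfa, the vessel growth factor and another such target, had 37.3 against 245 CPM (6.56-fold lower) and 11.1 against 28.4 CPM (2.56-fold lower). The glycolytic enzymes of highest level did not pass 2-fold, with log2 ratios of -0.13 and 0.05 for Gapdh, -0.20 and 0.15 for Ldha, -0.50 and -0.09 for Aldoa and -0.37 and -0.06 for Pkm.

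Genes of the monocyte-derived list, which mark macrophages newly formed from blood monocytes, included several that were lower in members of each library. Of the 7 compared in both libraries, 2 were at least 2-fold lower in both. In primary 4 of 7 (median -1.05) and in liver 7 of 10 (-1.16) were at least 2-fold lower. Chil3, a chitinase-like protein of monocytes and alternatively activated macrophages, had 11.8 against 329 CPM in primary (27.8-fold lower) and 106 against 309 CPM in liver (2.90-fold lower). Hp, haptoglobin, was 3.06-fold and 2.36-fold lower. Ccr2, the receptor that brings monocytes out of the marrow, had 253 against 256 CPM in primary and 239 against 503 CPM in liver (2.11-fold lower). F13a1, a coagulation factor subunit on the same list, was under 2-fold and differed in direction, with log2 ratios of -0.84 and 0.54. Plac8 and Fn1 were the other 2 in primary, named after their values were seen, with log2 ratios of -1.17 and -1.05. In liver these were -0.72 and -0.68, under 2-fold. The per-cell sum of Ccr2 and Ly6c2, another monocyte gene, had a median of 0.384 in primary members, against 0 in non-cycling cells. In liver it had 1.36 against 3.44. Cells with a sum of 3 or more were members in 5.22% (2.89 to 8.61) of primary cases, against 4.40% (3.31 to 5.72) below. In liver the shares were 6.04% (4.81 to 7.47) and 9.92% (8.36 to 11.7). Thinning gave 1.80% and 1.74% in primary and 1.15% and 2.74% in liver. Outside the lists, Tmem119 (a membrane protein best known from microglia, 5.38-fold and 3.26-fold), the nuclear receptor Nr4a1 (2.96-fold and 3.02-fold) and the lipopolysaccharide co-receptor Cd14 (3.42-fold and 2.30-fold) were among the 15 lower in both.

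Arg1, which encodes the arginine-degrading arginase 1, was lower in members of the primary library. It had 503 (469 to 539) against 2230 CPM there (4.43-fold lower) and 2742 against 2567 CPM in liver (1.07-fold higher), and the difference between the libraries was not tested. Per cell, the primary median was 0.425 against 2.92 UMIs per 10000, and no primary member with 4 or 5 rule genes exceeded 7.60. Among primary C1q-positive cells, 9 of 488 with Arg1 at 10 or more were members, 1.84% (0.847 to 3.47), against 58 of 984 below, 5.89% (4.51 to 7.55), and 75 cells lay within 25% of the cut. Thinned to 3000 UMIs the shares were 0.202% and 2.58%. With members restricted to 4 or 5 rule genes the primary log2 ratio went from -2.15 to -4.21, that of Vegfa from -2.71 to -4.77 and that of Fos from -1.47 to -2.88, and with at least 2 rule genes they were -1.39, -1.53 and -0.77. Hmox1, heme oxygenase, had 103 against 279 CPM in primary (2.70-fold lower) and 805 against 812 CPM in liver.

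MHC class II genes, which present antigen to CD4 T cells, were lower in members of the liver library. None of 7 passed 2-fold in primary (median -0.07), and 4 of 7 were lower in liver (-1.01), namely H2-Aa, H2-Ab1, H2-Eb1 and their activator Ciita (log2 -1.20, named for the count). H2-Aa had 4981 against 6137 CPM in primary and 1308 against 2631 CPM in liver (2.01-fold lower). Cd74, the invariant chain, had 14475 (14290 to 14663) against 16345 CPM and 4601 (4536 to 4667) against 8565 CPM (8517 to 8613). The median cell had an MHC class II sum of 332 against 322 UMIs per 10000 in primary, and 50.8 against 121 in liver. In liver, members with a higher G2/M sum had 35.8 and those with a higher S sum 88.1. Cells with a sum of 40 or more were members in 113 of 1749 cases, 6.46% (5.35 to 7.72), against 97 of 881 below, 11.0% (9.02 to 13.3), with 192 cells near the cut, and thinning gave 1.25% and 3.14%.

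**Figure D4:**
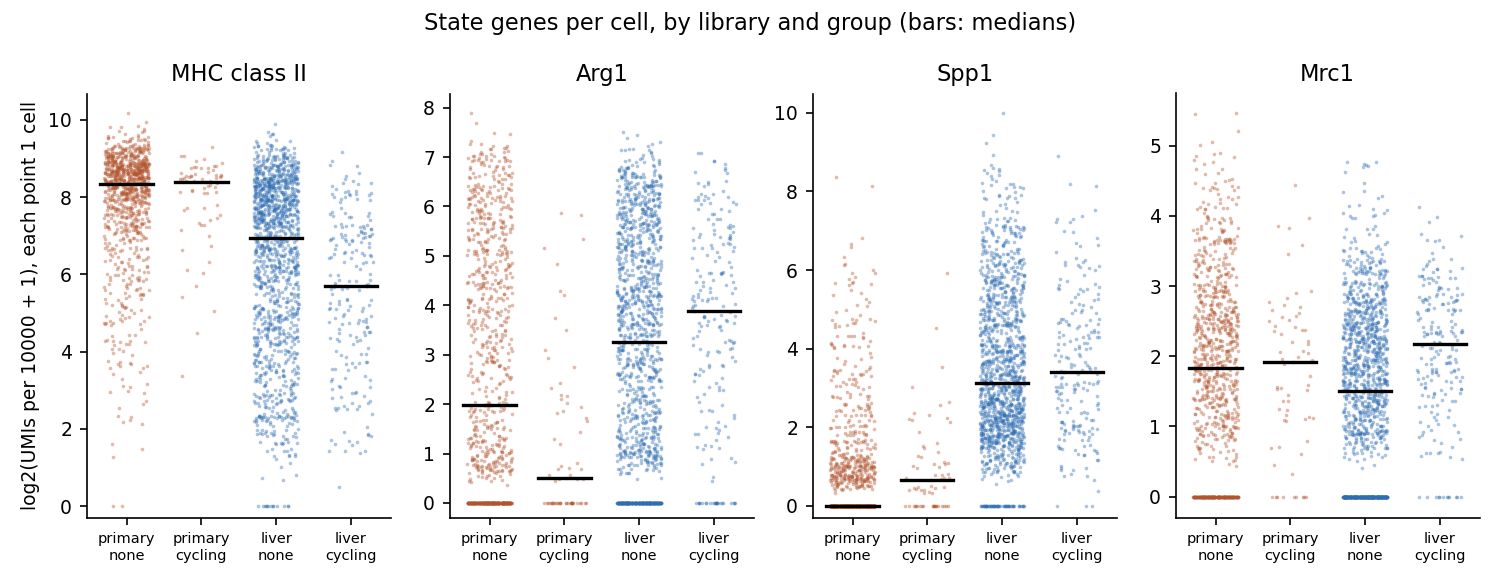
Per-cell levels as log2(UMIs per 10000 + 1) of state genes (1 panel each) in non-cycling cells (none) and members (cycling) of both libraries, each point 1 cell and each bar the median. Arg1 is lower in primary members (median 0.425 against 2.92 UMIs per 10000) and MHC class II in liver members (50.8 against 121).

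Other macrophage states did not separate members from non-cycling cells by 2-fold as a group. Of lipid-associated macrophage genes 1 of 15 in primary (Lpl) and 1 of 16 in liver (Fabp4) were higher and none lower, with medians of -0.12 and 0.15. Lpl, lipoprotein lipase, had 78.4 against 37.4 CPM in primary, and Fabp4, a fatty acid carrier, 99.3 against 44.1 CPM in liver, both named after their values were seen. Trem2, the lipid receptor of this state, had 299 against 319 CPM and 687 against 624 CPM. Apoe, the lipid carrier, had 19868 against 26728 CPM and 18098 against 26020 CPM. Phagocytosis genes passed 2-fold for none of 15 in either library (medians -0.01 and -0.20).

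Interferon genes went different ways without a common direction. Of 12 compared in primary, 2 were lower (Irf7 and Cxcl10, named for the count) and none higher (median 0.38), and of 15 in liver 1 was lower (Cxcl9; median -0.27). Cxcl9, a T cell chemokine induced by interferon gamma, had 622 against 348 CPM in primary and 32.8 against 108 CPM in liver.

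Of 13 genes of tissue-resident macrophages, 8 in liver and 4 in primary had enough UMIs to compare. In liver 2 of 8 were higher in members (median 0.57) and in primary 1 of 4 was lower (-0.29). Gas6, which bridges dying cells to phagocytes, had 117 against 38.6 CPM in liver (3.03-fold higher) and 20.5 against 26.1 CPM in primary. Cbr2, a carbonyl reductase named for the count, had 39.7 against 15.8 CPM in liver. Folr2, a folate receptor of resident macrophages, had 62.9 CPM in liver members, at a log2 ratio of 0.84 to non-cycling cells, and 7.46 against 29.3 CPM in primary, where it was the 1 lower gene. Its primary log2 ratio, -1.97, became -0.36 with at least 2 rule genes. Cd5l, a marker of Kupffer cells (the macrophages of the liver), was at 5 or more UMIs per 10000 in 33 liver C1q-positive cells, of which 3 were members. Clec4f and Timd4, further Kupffer cell markers, did not reach the level for comparison.

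Several protein synthesis genes passed 2-fold in primary, while few did in liver and few respiration genes did in either library. Of protein synthesis and ribosome biogenesis genes 6 of 14 in primary (median 0.78) and 1 of 14 in liver (0.38) were at least 2-fold higher. Over all compared genes the shares were 6.75% and 3.73%. The 1 gene past it in both was Ran, the GTPase of nuclear transport and spindle assembly (3.62-fold and 2.06-fold). Oxidative phosphorylation genes had medians of 0.56 and 0.31 with 1 of 18 past 2-fold in primary (Cycs, cytochrome c, 163 against 80.3 CPM, named after its value was seen) and 0 of 18 in liver. Cox5a, a subunit of cytochrome c oxidase, was 1.63-fold and 1.41-fold higher.

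Between sites, part of the members' 2-fold differences was also found in non-cycling cells. Of 6371 genes compared, 293 (4.6%) were at least 2-fold higher and 512 (8.04%) at least 2-fold lower in liver than in primary members (median log2 -0.08). Of these, 149 (50.9%) and 250 (48.8%) were past 2-fold the same way in non-cycling cells. Only the 5794 genes compared in both groups could be counted so. The share of all genes past 2-fold in non-cycling cells is not given, so nothing is read from these 2 shares. The site, the library's depth and its free RNA cannot be told apart. The genes for an IL-1 decoy receptor, Il1r2, the chemokine Ccl5 and the adhesion protein Jaml were 17.1-fold, 9.11-fold and 8.57-fold lower in liver members, and 10.1-fold, 5.63-fold and 6.88-fold lower in non-cycling cells. Gpnmb, a glycoprotein of lipid-loaded macrophages, was 10.7-fold higher in liver members and 10.6-fold higher in non-cycling cells, with 73.2% of its primary member UMIs from 1 cell. Tff1, Wfdc2, Lgals4 and Tm4sf1, genes of epithelial tumor cells, were also among the 8 highest in liver, and all were above the members in free RNA, Tff1 for example at 230 CPM in liver members and 1517 CPM in free RNA.

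The state genes with a wider gap between sites in members than in non-cycling cells were of several kinds. Arg1 was 5.45-fold higher in liver members against 1.15-fold in non-cycling cells. Spp1, osteopontin, was 15.4-fold against 8.66-fold higher, with 202 CPM in primary and 3110 CPM in liver members. Hmox1 was 7.80-fold against 2.91-fold higher, Gas6 5.70-fold against 1.48-fold and Folr2 8.42-fold against 1.19-fold. Cxcl9 was 19.0-fold lower in liver members and 3.23-fold lower in non-cycling cells. MHC class II genes were lower for 7 of 7 (median -1.82), against 3 of 7 (-0.93) in non-cycling cells. The difference between these differences has no replicate and was not tested.

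Saa3, an acute-phase gene, was the 1 gene past 2-fold in opposite directions between sites. It had 10.6 CPM in primary and 439 CPM in liver members, 41.5-fold higher in liver, and 738 and 349 CPM in non-cycling cells, 2.11-fold lower in liver. The primary log2 ratio of members to non-cycling cells, -6.13, became -1.25 when cells of up to 20% mitochondrial UMIs were let in, and it rests on 17 UMIs in primary members. Lipid-associated genes were higher in liver members for 10 of 16 and lower for 1 (median 1.33), and in non-cycling cells for 8 and 1. Resident-type genes were higher for 6 of 8 (2.79), against 2 of 6 (0.41). Only 4 resident-type genes reached the level for comparison in primary, so the rest of the 8 entered through liver members, which favours a higher liver level. The 2 counts also cover different genes and are not a like comparison.

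**Figure D5:**
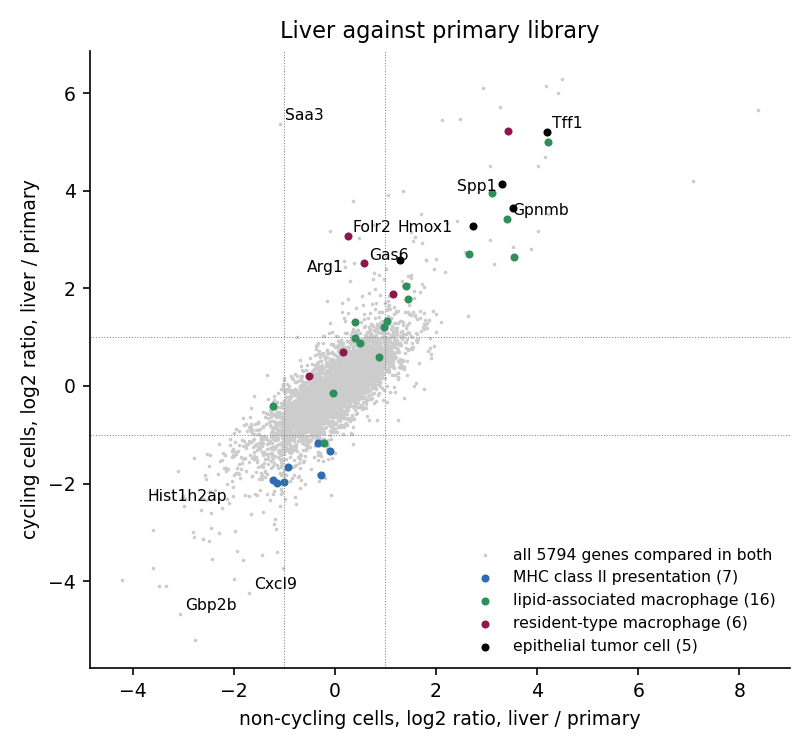
Log2 ratio of the liver to the primary library in non-cycling cells (x axis) against members (y axis) for the 5794 genes compared in both groups (grey points), with state lists in color. Genes near the diagonal differ between libraries alike in both groups, MHC class II genes lie below 0 on both axes (medians -0.93 and -1.82), and Saa3 lies at upper left.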

How the data were processed

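For each library the authors deposited a matrix of UMI counts per gene and barcode, with 31053 genes and 6794880 barcodes. Cell Ranger, bcl2fastq and the build mm10 are named per the submitters' processing notes, and the matrix software version is 3.0.0 per the file headers. The labels name a 3' v2 kit, while the barcode list is longer than that kit's, so the kit version is not settled. The bulk libraries were not used here. Cells were called and gated as described, and the members and gene lists were chosen with earlier results of these data known. UMIs were summed per group and scaled to CPM, with a group at 0 set to 3 UMIs. Exact Poisson and Clopper-Pearson intervals and thinning used scipy 1.17.1 and numpy 2.4.6 under python 3.11.15, with pandas 2.3.3 and matplotlib 3.10.9. Doublets were scored, not removed, with Scrublet in scanpy 1.11.5, whose own threshold marked 5 of 2277 primary and 1 of 7618 liver cells and had not worked in liver. The sums and ratios were tested on simulated data. Symbols with more than 1 row (35) were summed, and 1 of 483 listed gene names (Sepp1) matched no row. Named genes were the 10 highest and 10 lowest off the lists in both libraries, up to 4 of each list by level, listed state genes past 2-fold in both, and the 8 highest and 8 lowest between sites. Library totals were 82083967 UMIs (primary) and 161890665 UMIs (liver). Values of 2 genes that the rule for named genes picks are not reported here.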

Additional observations from a re-analysis of the deposited data

Results flagged for a closer look

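Of the named genes compared in both libraries, 4 had ratios of members to non-cycling cells that were at least 1.5-fold in each library and pointed in opposite directions, and the difference was not tested for any of them. Folr2 had a log2 ratio of -1.97 in primary and 0.84 in liver, and the primary ratio became -0.36 with at least 2 rule genes. Cxcl9 had 0.84 in primary and -1.72 in liver. Mmp13, a collagenase, had 0.75 in primary and -0.70 in liver, with 35.7% of the UMIs of primary members from 1 cell. Ighm, the heavy chain of immunoglobulin M and a B cell transcript, had 0.81 in primary and -0.90 in liver.

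Cells outside the member rule also carried at least 3 of the 5 cycle genes. Among C1q-positive, keratin-low barcodes over 10% mitochondrial UMIs there were 16 of 1091 in primary and 24 of 620 in liver. Among liver barcodes that were both C1q-positive and keratin-high there were 61 of 957, and 178 of those 957 barcodes (18.6%) had a doublet score among the top 6% of the library.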

How the results depend on the processing

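The shares and gene counts were recomputed under other settings, of which the doublet score limit and the C1q cut of 50 were chosen after seeing the data. The share of members among C1q-positive cells went from 4.55% in primary and 7.98% in liver to 11.1% and 17.8% with at least 2 cycle genes, to 2.11% and 4.33% with at least 4, and to 1.76% and 1.85% after thinning to 3000 UMIs. It became 3.51% in primary without the highest 6% of doublet scores, and in liver 12.2% with a keratin cut of 5, 11.7% among cells of at least 10000 UMIs and 9.14% with a C1q cut of 50. With at least 2 cycle genes, genes higher and lower in members numbered 192 and 54 in primary and 107 and 19 in liver. With at least 4 they numbered 669 and 359 in primary, and 127 were lower in liver. With genes of at least 50 CPM they numbered 180 and 121 in primary, 96 and 35 in liver, and 160 and 264 between sites. Among cells of at least 10000 UMIs, 48 genes were lower in liver. The other settings left these counts within 1.5 times of the main ones, the doublet score limit and median-ratio scaling included. No paired analysis was possible because each site has 1 single-cell library. Depth limits what detection of 3 genes can show, and 3 of 79 neutrophil-type barcodes of the liver reached it.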
